A study of Mus musculus with 8 samples.

Results

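Mature oligodendrocytes are the glial cells that wrap the axons of the central nervous system in myelin, and 37 genes of these cells and their myelin are described here across 8 mouse cortex samples. The genes were taken by symbol from a list of myelin sheath proteins, lipid enzymes, gap junction proteins, regulators and receptors. All 37 were found among the 22609 rows of the deposited expression table, and all 37 were among the 14704 genes tested. Oligodendrocytes arise from precursor cells under the transcription factors Olig2, Sox10 and Nkx2-2, and the factor Myrf then switches on the myelin genes. The sheath consists of galactolipid and cholesterol with a small number of abundant proteins, and it insulates axons and speeds conduction. New oligodendrocytes go on forming in the adult cortex, where new myelin has been studied as a slow consequence of learning.

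The tissue was the medial prefrontal cortex, the anterior cingulate subregion of both hemispheres, of B6.SJL mice aged 3 months. The 4 samples labelled Contextual fear conditioning came from mice that explored a chamber for 3 min, received 2 unsignalled foot shocks of 0.8 mA lasting 2 s each and 30 s apart, and were removed 15 s later. The 4 labelled Context control exposure came from mice given the same procedure with no shock, and all tissue was taken 1 h after training. The design text calls the samples biological replicates, and neither it nor the labels say whether a sample pooled animals.

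The deposited values are gene read counts divided by a factor for each sample. They are not corrected for gene length, so levels are compared between samples and never between genes. Recovered gene reads ranged from 1992452 to 3565356 per sample. A log2 change is the mean of log2(value + 1) in conditioned samples minus that in controls, where adding 1 shrinks differences between low values. The 95% confidence interval of such a change reached a median of 1.08 to either side for the 37 genes, against 0.62 over all tested genes. Context control replicate 3 stood apart from the other samples in these genes, and each gene's log2 change below is also given without it.

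Fear conditioning was not followed by a change that passed the test in any of the 37 genes. The limma adjusted p was 0.9998 for each of them, and 0% of all 14704 genes passed. At an unadjusted p under 0.05 there was 1 of the 37, the protease gene Klk6, and it lay lower after conditioning. Over all genes 2.7% reached that level, with 1.52% of all genes reaching it on the lower side. For no gene of the 37 were the groups free of overlap, while 1.92% of all genes had groups that did not overlap, 0.939% with every conditioned sample lower and 0.979% with every one higher.

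The log2 change lay below 0 for 34 of the 37 genes, with a median of -0.49. Over all tested genes the share below 0 was 48.2% and the median was 0.01. The 3 genes on the other side were Hhip (0.61), Nkx6-2 (0.51, on 5 reads in either group) and Erbb3 (0.42). Nkx6-2 was at 1.02 and Erbb3 at 0.77 without context control replicate 3. Most of the shift below 0 rested on 1 control sample. Without context control replicate 3 the count below 0 was 23 of 37 (50.1% of all genes), the median was -0.06, and Hhip, with a log2 change of 1.16 (95% interval 0.03 to 2.30), was the 1 gene at an unadjusted p under 0.05, where 1.92% of all genes were. Without context control replicate 4, the sample lowest in these genes, the median was -0.84, 35 of 37 lay below 0 (50.2% of all genes) and 13 of 37 were at an unadjusted p under 0.05, against 2.72% of all genes, with no adjusted p below 0.9998. No decrease after conditioning passed the test. In whole tissue a lower value would not tell fewer oligodendrocytes from less RNA per oligodendrocyte.

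**Figure D1:**
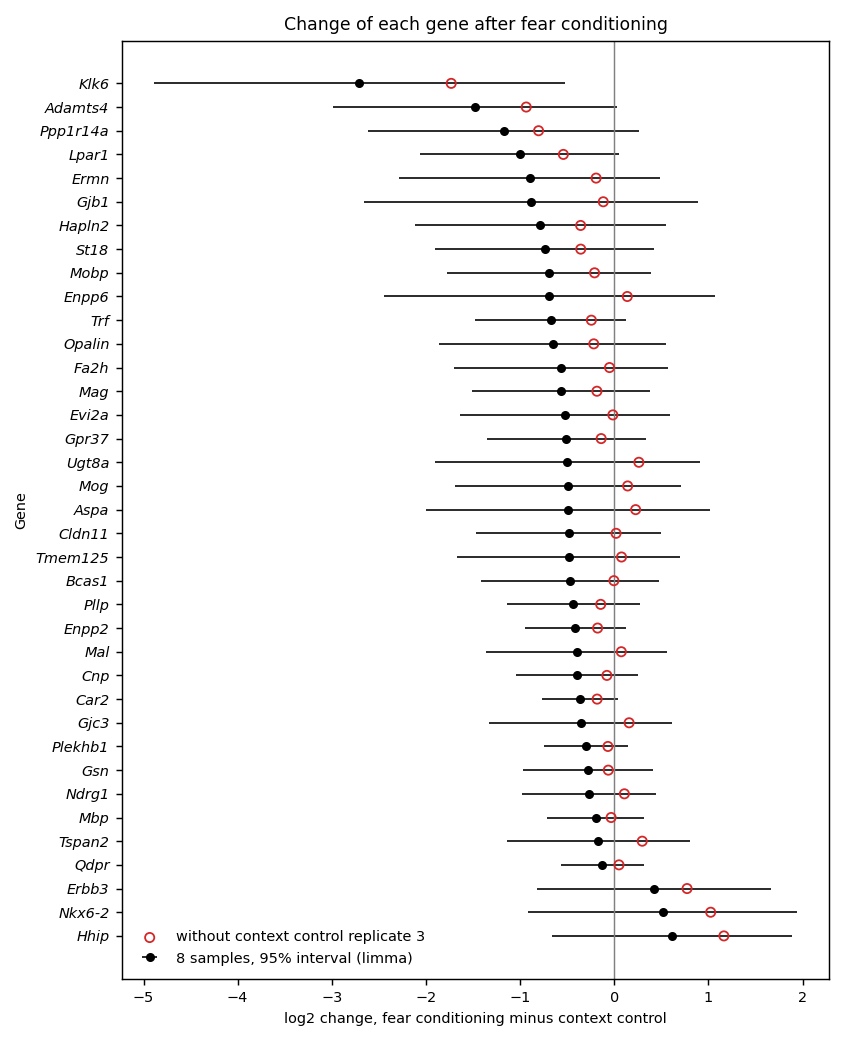
Change of each of the 37 genes, in log2 of (value + 1), fear conditioning minus context control. Black points and bars are the estimates and 95% intervals from all 8 samples, and open red circles are the estimates without context control replicate 3. The interval of Klk6 is the only one that does not reach 0, and most red circles lie closer to 0 than the black points, with those of Hhip, Nkx6-2 and Erbb3 further above it.

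The myelin sheath and membrane genes, 12 in all, each had a log2 change below 0, with a median of -0.49 that was -0.11 without context control replicate 3. Mbp encodes myelin basic protein, which holds the inner faces of the compact sheath together, and its gene also gives golli transcripts that neurons make. It measured 1627, 1974, 2297 and 960.8 in context controls 1 to 4, and 1798, 1259, 1493.5 and 1211 in conditioned replicates 1 to 4. The controls spanned the whole range of the conditioned samples, and the log2 change was -0.20 (95% interval -0.72 to 0.32), and -0.03 without control 3.

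Mal encodes a proteolipid that carries myelin proteins to the membrane. Its values were 450.1, 338, 1269.5 and 257.5 in the controls and 319, 189.7, 474 and 571 after conditioning, a log2 change of -0.40 (-1.36 to 0.56) that was 0.07, on the other side of 0, without control 3. Control 3 exceeded all 7 other samples, and the other 3 controls lay inside the conditioned range. For Ermn, whose product ermin is a cytoskeletal protein of mature oligodendrocytes, the controls were at 173, 137, 881 and 78.9 and the conditioned samples at 96.7, 42.4, 157 and 206. The log2 change was -0.90 (-2.29 to 0.49), and -0.19 without control 3. As a fold over the other controls, control 3 stood out most for Ermn and least for Mbp among the sheath genes.

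In each of the other sheath genes control 3 was the highest of the 8 samples. Mog, which encodes a glycoprotein of the outermost myelin surface, ranged from 66.0 to 514 in controls and from 46.4 to 159 after conditioning. Mag, the adhesion protein facing the axon, ranged from 51.5 to 300.5 and from 65.0 to 127. Mobp, a basic protein of compact myelin, spanned 66.0 to 554 and 71.6 to 174. Each of these ranges was wider in the controls than after conditioning. Cnp, the cyclic nucleotide phosphodiesterase of uncompacted myelin, spanned 269 to 989 in controls and 353 to 414 after conditioning. Cldn11, the claudin of the tight junctions between myelin layers, spanned 98.2 to 601 and 92.9 to 234. The tetraspanin gene Tspan2 spanned 212 to 985 and 174 to 577. Control 4 was the lowest control for these genes, and conditioned replicate 4 held the highest conditioned value of Cldn11 and Tspan2 but the lowest of Cnp. Opalin, a sialoglycoprotein of oligodendrocytes, spanned 9.66 to 63.5 and 6.63 to 24.9. Pllp, encoding plasmolipin, spanned 61.2 to 198.6 and 70.04 to 102. Hapln2, which links hyaluronan to proteoglycans at nodes of Ranvier, spanned 4.03 to 20.2 and 1.38 to 8.63, on at most 20 reads in a sample.

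**Figure D2:**
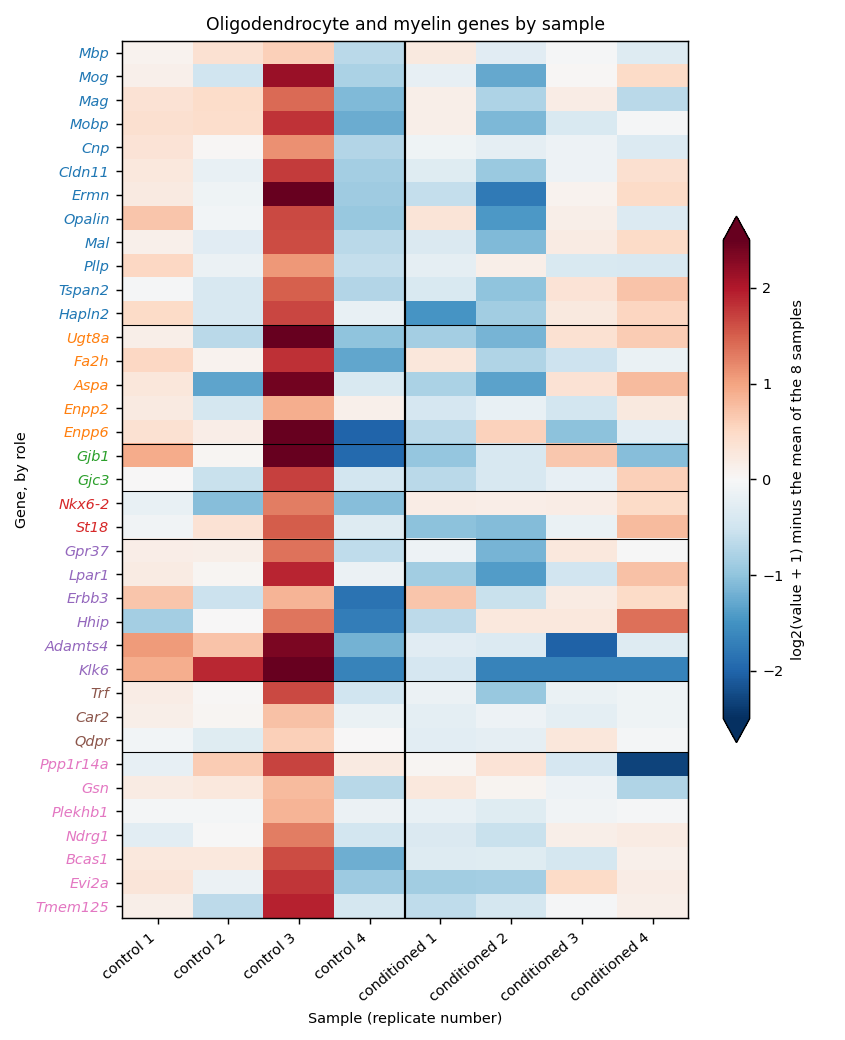
Heat map of the 37 genes (rows, grouped by role) in the 8 samples (columns), as log2(value + 1) minus the gene's mean over the 8 samples. Red is above and blue below the gene's mean, and values past the ends of the colour bar take the end colour. Context control replicate 3 is red in every row, and context control replicate 4 is below the mean in 34 rows.

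The sequence before the start is shown for 4 sheath genes, chosen because they carry a match to the letters of a Myrf site. Whether these letters bear on the levels across samples was not tested. The RefSeq promoter table (GRCm38.p6) held 38 windows for 26 of the 37 genes, each from 250 bases before to 50 after a start. Windows of alternative starts of 1 gene can overlap. CTGGCAC or CTGGTAC, letters of the Myrf pattern, occurred on either strand in 8 of the 38 windows (21.1%), belonging to Cnp, Hapln2, Lpar1, Mag, Mog, Opalin and Tmem125, and in 7.1% of all 32851 windows of that length. ACAAAG or ACAATG, the core of the pattern bound by Sox10 and its relatives, occurred in 15 of 38 (39.5%) against 28.6%. The E-box CAGCTG, a pattern of helix-loop-helix factors such as Olig2, occurred in 5 of 38 (13.2%) against 16.3%. None of these motifs is contained in another. A match describes letters in the window and shows neither binding nor its absence. The 250 bases before the start are printed 5′ to 3′ on the gene's strand, with matches to the Myrf and Sox letters in capitals, a match on the opposite strand appearing as its reverse complement. They lie at chr17:37023399-37023648 (minus strand) for Mog, chr7:30914864-30915113 (minus) for Mag, chr11:100574689-100574938 (plus) for Cnp and chr3:88027512-88027761 (minus) for Hapln2. Of the Mag starts in the table, the upstream window printed is 1 of 2 that overlap.
Mog: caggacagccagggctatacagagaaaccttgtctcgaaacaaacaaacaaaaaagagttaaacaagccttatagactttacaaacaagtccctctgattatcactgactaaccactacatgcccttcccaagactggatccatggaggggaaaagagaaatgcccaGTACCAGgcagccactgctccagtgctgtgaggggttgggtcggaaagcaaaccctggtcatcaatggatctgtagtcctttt
Mag: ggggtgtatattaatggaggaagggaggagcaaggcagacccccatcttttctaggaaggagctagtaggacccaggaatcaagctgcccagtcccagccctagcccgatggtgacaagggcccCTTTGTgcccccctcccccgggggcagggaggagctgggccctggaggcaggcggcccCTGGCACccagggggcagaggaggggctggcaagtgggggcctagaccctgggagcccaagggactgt
Cnp: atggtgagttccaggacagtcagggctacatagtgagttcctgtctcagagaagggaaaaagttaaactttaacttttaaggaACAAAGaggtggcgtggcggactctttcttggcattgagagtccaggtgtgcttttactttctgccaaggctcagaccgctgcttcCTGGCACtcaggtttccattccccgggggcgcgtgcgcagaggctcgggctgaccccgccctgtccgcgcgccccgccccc
Hapln2: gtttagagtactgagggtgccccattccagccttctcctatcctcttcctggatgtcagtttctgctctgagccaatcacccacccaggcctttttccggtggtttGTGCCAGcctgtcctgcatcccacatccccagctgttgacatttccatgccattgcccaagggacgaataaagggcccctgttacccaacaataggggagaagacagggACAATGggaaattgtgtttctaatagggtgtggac
Counted back from the start, the Myrf letters begin at position -83 in Mog, -68 in Mag, -81 in Cnp and -144 in Hapln2. Sox letters lie upstream of them in Mag and Cnp and downstream in Hapln2, and the Mog sequence holds none. The 4 genes differed in how far control 3 stood above the other controls, from 2.29-fold for Cnp to 5.62-fold for Mog.

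The lipid genes, 5 in all, had log2 changes below 0 that turned on the same control. Ugt8a makes galactosylceramide, the main galactolipid of myelin. Its values were 177, 99.4, 922 and 78.9 in controls 1 to 4 and 88.4, 70.3, 206 and 249.4 after conditioning, a log2 change of -0.50 (-1.91 to 0.91). Without control 3 the estimate was 0.26, on the other side of 0. Enpp2 encodes autotaxin, which produces lysophosphatidic acid, and it stood at 1046, 665, 1689 and 982 in controls and 669.8, 788, 655 and 1064 in conditioned samples. Its log2 change of -0.41 (-0.95 to 0.13) was -0.18 without control 3. Enpp2 and Ugt8a thus had near-equal estimates over 8 samples and estimates of opposite sign over 7.

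The remaining lipid genes spanned wide ranges in the controls. Fa2h, which hydroxylates the fatty acids of myelin lipids, spanned 17.7 to 163 in controls and 26.5 to 55.2 after conditioning. Aspa, which releases acetate from N-acetylaspartate, spanned 12.1 to 172 and 11.9 to 55.6. Enpp6, a choline phosphodiesterase known to be high in newly forming oligodendrocytes, spanned 1.61 to 72.6 and 4.10 to 14.6. For Aspa and Enpp6 the estimates were 0.23 and 0.14 without control 3, again on the other side of 0.

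Gap junction proteins couple oligodendrocytes with astrocytes and connect layers of the sheath. The connexin gene Gjb1 measured 18.3, 9.40, 66.6 and 1.61 in controls and 4.14, 6.63, 15.0 and 3.84 after conditioning, a log2 change of -0.88 (-2.65 to 0.89) that was -0.12 without control 3. Gjc3, another connexin gene of oligodendrocytes, measured 94.7, 63.1, 309.6 and 67.6 in controls and 58, 70.3, 80.6 and 141 after conditioning. Its log2 change was -0.36 (-1.33 to 0.62), and 0.16 without control 3. For Gjb1 control 1 was also above every conditioned sample, while for Gjc3 only control 3 was.

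The transcription factor genes were both low in reads. Nkx6-2 encodes a homeobox factor of oligodendrocytes. It was at 0.831, 0, 4.03 and 0 in controls and 1.38, 1.33, 1.37 and 1.92 after conditioning, on 5 reads in either group. The ratio of conditioned to control reads, each set against its group's depth, was 1.1, with an interval from counting of 0.252 to 4.76. It was 3.95 (0.442 to 187) against the 1 read of the other 3 controls. Neither interval covers the spread between samples. The gene passed the filter of a mean value of 1 only through control 3, with a mean of 1.36 over all samples and 0.9747 without that sample. St18, a zinc finger factor, measured 11.6, 16.1, 37.3 and 9.66 in controls and 5.52, 5.31, 10.9 and 22.1 after conditioning, a log2 change of -0.74 (-1.90 to 0.42) that was -0.36 without control 3.

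Receptors, ligand-binding proteins and secreted proteases held the lowest and the highest log2 change of the 37 genes. Gpr37 encodes a receptor that restrains oligodendrocyte differentiation. It measured 166, 164, 384 and 94.95 in controls and 137, 66.3, 179 and 148 after conditioning, a log2 change of -0.51 (-1.36 to 0.34) that was -0.14 without control 3. Lpar1, a receptor for lysophosphatidic acid, measured 103.8, 92.7, 336 and 80.5 in controls and 48.3, 33.2, 64.2 and 149.7 after conditioning. Its log2 change of -1.01 (-2.07 to 0.05) was -0.54 without control 3. Conditioned replicates 1, 2 and 3 lay below every control for Lpar1, and conditioned replicate 4 lay above all controls but control 3.

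Klk6 encodes a kallikrein serine protease secreted by mature oligodendrocytes. It was at 4.98, 10.7, 60.5 and 0 in controls and 1.38, 0, 0 and 0 after conditioning. Control 4 and 3 conditioned samples were listed at 0, so the groups overlapped. The log2 change was -2.71 (-4.88 to -0.53), and -1.73 (-3.63 to 0.17) without control 3. The conditioned samples held 1 read of Klk6 in all and the controls 74. Set against depth, the ratio was 0.0148 (0.00037 to 0.0851 from counting), and 0.0564 (0.00133 to 0.371) against the 14 reads of the other 3 controls. These intervals cover counting error only, not the spread between samples. Adamts4, a metalloprotease of the extracellular matrix, spanned 3.22 to 48.4 in controls and 1.37 to 6.90 after conditioning, with a log2 change of -1.48 (-2.98 to 0.03) that was -0.94 without control 3.

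Erbb3 and Hhip had estimates above 0. Erbb3, a neuregulin receptor, spanned 3.22 to 26.2 in controls and 9.29 to 23.5 after conditioning, so all conditioned samples lay within the control range. Hhip, which binds hedgehog ligands, spanned 11.3 to 102.9 and 24.9 to 104.6. It was the only gene of the 37 whose highest sample was not control 3, the highest being conditioned replicate 4 by a narrow margin.

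The genes of iron, carbonate and pterin metabolism had the lowest median within-group SD of log2(value + 1) of the role groups, 0.39 in controls and 0.25 after conditioning. Trf encodes transferrin, which oligodendrocytes make in the brain. It measured 478, 429.8, 1320.0 and 301 in controls and 383, 219, 378.5 and 392 after conditioning, a log2 change of -0.68 (-1.48 to 0.12) that was -0.24 without control 3. Car2, a carbonic anhydrase of oligodendrocytes, measured 509.9, 477, 768 and 410.4 in controls and 389, 423, 391 and 433 after conditioning. Its log2 change of -0.36 (-0.76 to 0.03) was -0.18 without control 3. Controls 1 to 3 of Car2 lay above every conditioned sample, and control 4 lay among them. Qdpr, which recycles tetrahydrobiopterin, spanned 309 to 576 and 316 to 462.

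Among the 7 other intracellular and membrane genes, Plekhb1, which encodes a pleckstrin homology protein, measured 599.6, 598, 1124 and 562 in controls and 547, 500.1, 585 and 611 after conditioning. Its log2 change was -0.30 (-0.75 to 0.15), and -0.07 without control 3. Ndrg1, a stress-responsive gene of oligodendrocytes, measured 242.5, 289, 704 and 212 in controls and 226, 199, 324 and 338 after conditioning, a log2 change of -0.27 (-0.98 to 0.44) that was 0.11 without control 3. Both genes had 3 closely spaced controls and 1 control well above them. Ppp1r14a, an inhibitor of myosin phosphatase, measured 3.32, 6.71, 15.1 and 4.83 in controls and 4.14, 5.31, 2.73 and 0 after conditioning, on 27 and 9 reads. Its log2 change was -1.17 (-2.61 to 0.27), and -0.80 without control 3. The ratio of conditioned to control reads was 0.365 (0.151 to 0.8 from counting) and 0.593 (0.221 to 1.53) without control 3. The intervals of the ratio cover counting error only, not the spread between samples.

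The actin-severing gelsolin gene Gsn spanned 57.9 to 163 in controls and 55.6 to 113 after conditioning. Bcas1, known as a mark of oligodendrocytes that are forming myelin, spanned 82.1 to 597 and 142 to 209. Its estimate of -0.47 was about 0 without control 3. Evi2a, which lies within an intron of Nf1, spanned 24.1 to 162 and 24.9 to 64.2, and Tmem125 spanned 6.71 to 45.4 and 6.90 to 12.5.

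The widest differences in these genes lay between the controls. Context control replicate 3 was the highest control for 37 of 37 and the highest of all 8 samples for 36 of 37 (97.3%). It was the highest of the 8 for 15.0% of all tested genes. Context control replicate 4 was the lowest control for 29 of 37, against 23.6% of all genes. Both samples were singled out after their values were seen, so these counts are a description with no test. The summed value of the 37 genes was 8435, 7642, 18540 and 5559 in controls 1 to 4 and 6855, 5551, 7409 and 8117 in conditioned replicates 1 to 4. Those sums were 0.285%, 0.244%, 0.599% and 0.173% of all gene values in the controls, and from 0.174% to 0.253% in the conditioned samples. The highest and the lowest control thus enclosed the conditioned sums, except that conditioned replicate 2 lay just under control 4.

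**Figure D3:**
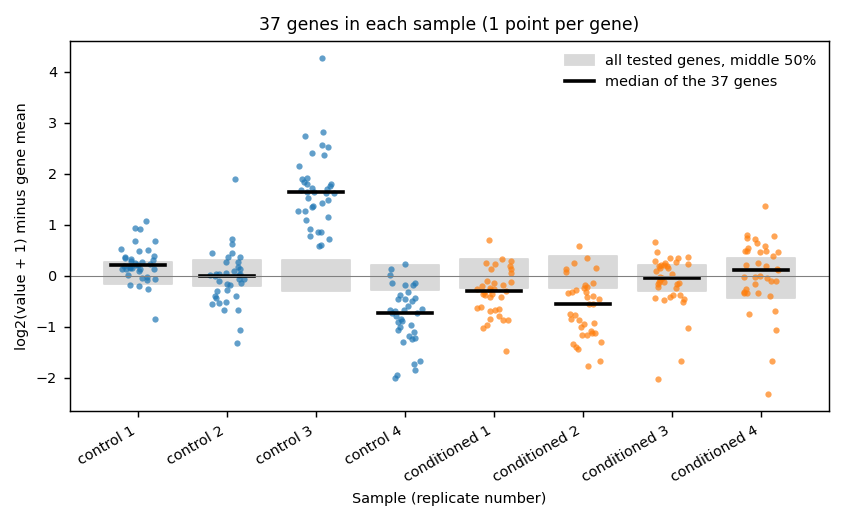
Each point is 1 of the 37 genes in 1 sample, as log2(value + 1) minus the gene's mean over the 8 samples, with blue for context controls and orange for fear conditioning. Black bars are the medians of the 37 genes and grey boxes span the middle 50% of all tested genes. The median is 1.64 in context control replicate 3 and -0.72 in replicate 4, and between -0.55 and 0.21 in the other 6 samples.

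The median within-group SD of log2(value + 1) over the 37 genes was 1.06 in controls, 0.54 in controls without replicate 3 and 0.56 in conditioned samples. Over all tested genes the same medians were 0.34, 0.29 and 0.41. The fold by which control 3 exceeded the mean of the other 3 controls, on value + 1, had a median of 3.39 over the 37 genes. It was at least 2-fold in 31 of 37, against 5.29% of all genes.

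The excess differed from gene to gene and by role. Its median was 6.65-fold for lipid genes, 5.18 for gap junction genes, 3.65 for receptors and proteases, 3.39 for transcription factors, 3.27 for sheath genes, 2.83 for the other intracellular and membrane genes and 1.65 for iron, carbonate and pterin metabolism. The largest folds belonged to Klk6 (9.85), Enpp6 (7.94), Ugt8a (7.73), Ermn (6.76), Aspa (6.65) and Gjb1 (6.28). The smallest belonged to Mbp (1.51), Qdpr (1.63), Car2 (1.65), Gsn (1.74), Enpp2 (1.88) and Plekhb1 (1.92). Mbp, Car2, Qdpr, Gsn and Enpp2 are also made by cells other than oligodendrocytes in brain tissue. Whether this bears on their folds was not tested. Among the 8739 genes whose mean value reached 50, the list of largest folds was led by Anln (7.86), an oligodendrocyte gene outside the 37. Only 25 of the 37 reached that mean and could enter the order. Of its first 20 genes, 11 were among the 37, and of the first 100, 19 were.

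**Figure D4:**
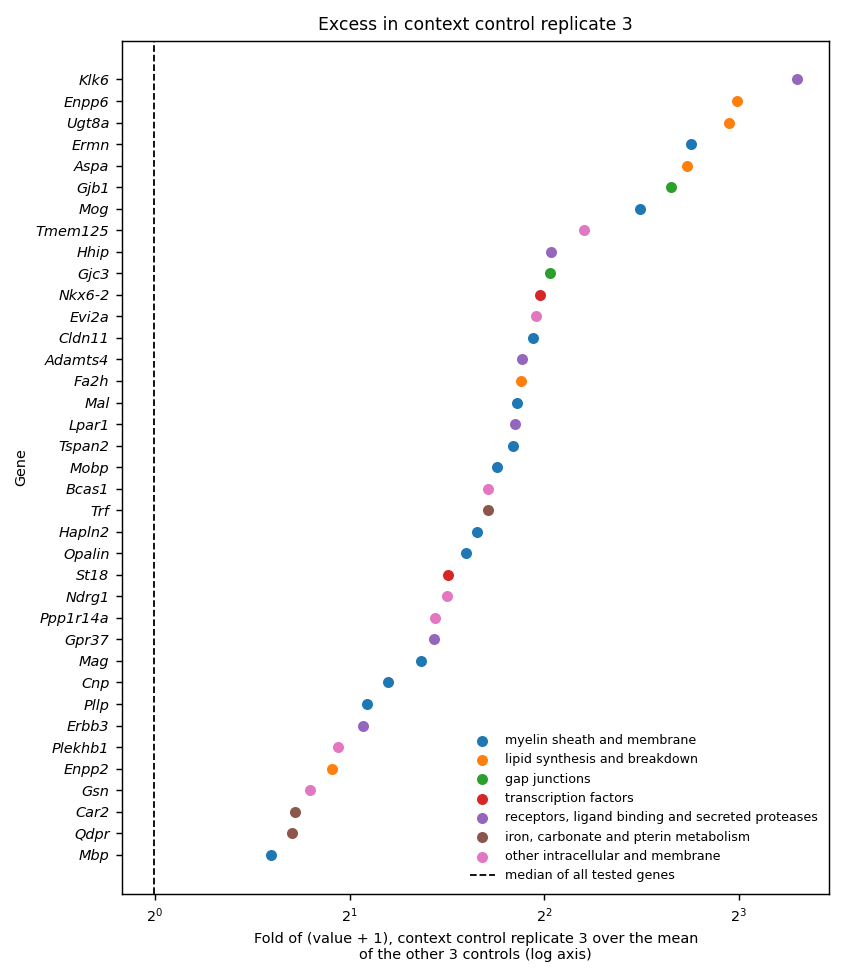
Fold of (value + 1) in context control replicate 3 over the mean of the other 3 controls for each of the 37 genes, on a log axis, coloured by role. The dashed line is the median of all tested genes. Every gene lies to the right of it, from 1.51-fold for Mbp to 9.85-fold for Klk6, with the 3 iron, carbonate and pterin genes (brown) spread from 1.63 to 3.27.

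The conditioned samples also differed in a partly shared order. Conditioned replicate 4 was the highest of its group for 20 of 37 genes, against 32.7% of all genes, and conditioned replicate 2 was the lowest for 19, against 25.97%. Conditioned replicate 1 was the highest for 9 genes, among them Mbp, Cnp, Mobp, Opalin and Fa2h, against 20.9% of all genes, and for 4 genes after the GC correction described below. The order was therefore less uniform than among the controls, where a single sample was highest for all 37.

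Base composition moved with context control replicate 3 and with conditioned replicate 4. Across the 8671 of 8739 genes that reached a mean value of 50 and had a known GC content of the longest transcript, the fold of control 3 over the other controls had a Spearman rho of -0.64 with GC content. The same correlation for conditioned replicate 4 over its group was -0.78. Across the 37 genes, whose GC content ran from 38.01% to 64.3%, the values were -0.29 and -0.61. These are descriptions across genes, which share their libraries. After a correction for GC content, control 3 was the highest sample for 37 of 37 genes, and its median fold over the geometric mean of the other controls was 3.79, against 3.63 uncorrected. The median log2 change after conditioning was then -0.52, with 34 of 37 below 0.

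Other genes of the lineage were read from lists of their own. Of 8 lineage transcription factors, none passed the test, 7 had a log2 change below 0, and their median was -0.33 (-0.11 without control 3). The smallest p-values belonged to Tcf7l2, a Wnt pathway factor of differentiating oligodendrocytes, and Olig2. Tcf7l2 measured 37.4, 32.2, 27.2 and 16.1 in controls and 19.3, 14.6, 9.56 and 13.4 after conditioning, a log2 change of -0.92 (SE 0.37) with and -0.91 without control 3. Olig2 measured 85.5, 67.2, 111.9 and 67.6 in controls and 38.7, 42.4, 49.2 and 79.6 after conditioning, a log2 change of -0.68 (SE 0.28) and -0.53 without control 3. Unlike the 37 genes, Tcf7l2 was not raised in control 3, where it was 0.955 times the other controls. Myrf, whose row carries an older symbol, was 3.04-fold higher in control 3. These were the lowest and the highest of the 8 factors in that sample. Their median was 1.37-fold, and 2 of the 8 were raised at least 2-fold.

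Of 26 other mature oligodendrocyte genes none passed, 19 lay below 0, and the median was -0.28, with 13 of 26 below 0 and a median of about 0 without control 3. Gpr62, an orphan receptor gene of oligodendrocytes, measured 34.9, 36.3, 57.5 and 35.4 in controls and 20.7, 22.5, 24.6 and 20.1 after conditioning, with no overlap between the groups. That separation on the lower side was shared by 0.939% of all genes. Its log2 change was -0.84 (SE 0.29) and -0.67 without control 3. Apod, an apolipoprotein gene, measured 293, 279, 555 and 488 in controls and 242, 361, 175 and 266 after conditioning, a log2 change of -0.61 (SE 0.26) and -0.44 without control 3. Adjusted p was 0.9998 for both.

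Cholesterol synthesis, which supplies the main sterol of myelin but runs in all brain cells, had most of its estimates on the other side of 0. Of 19 genes 18 were tested, none passed, and 14 had a log2 change above 0, with a median of 0.14 (0.11 without control 3). Hmgcs1 was listed at 0 in all 8 samples. Sc5d, a late sterol desaturase, measured 209, 211, 300.5 and 246 in controls and 275, 247, 250.1 and 414 after conditioning, a log2 change of 0.28 (SE 0.20) and 0.39 without control 3. None of the 18 tested genes of this list was raised 2-fold in control 3.

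Markers of other cells give the setting of the high control. The summed level of 10 neuron markers was between 16960 and 21510 in controls and between 16830 and 22540 after conditioning, and in control 3 it was 0.866 times the mean of the other controls. For 11 oligodendrocyte precursor markers the ranges were 1129 to 1548 and 1125 to 1436, and control 3 was at 1.27 times the others. For 10 astrocyte markers they were 15160 to 21510 and 15000.0 to 17680, and control 3 was at 1.26 times. Gene by gene, the astrocyte folds ran from 0.857 to 2.02, with a median of 1.23. The sum of the 37 genes in the same sample was 2.57 times the others. The 26 other mature oligodendrocyte genes were raised less in control 3. Gene by gene, their folds over the other controls had a median of 1.86, against 3.39 for the 37. They ran from 0.645 to 7.86, and 12 of the 26 were raised at least 2-fold, against 31 of the 37. Microglia (12 markers, 2255 to 2897 and 2021 to 2316) and endothelial and mural cells (12 markers, 1634 to 2204 and 1212 to 1795) stood at 1.16 and 1.26 times in control 3. Meningeal fibroblast markers (10, 576 to 1351 and 295 to 922) stood at 1.82 times, and choroid plexus and ependymal markers (10, 43.2 to 106.9 and 27.6 to 76.9) at 1.78 times, with Folr1 and Otx2 listed at 0 in 7 samples each. Gene by gene, the median fold was 2.07 for the meningeal list, with 5 of 10 raised at least 2-fold. For the choroid plexus and ependymal list it was 1.89, with 3 of the 8 tested. Striatal neuron markers (8, 709 to 1155 and 733 to 926) stood at 0.743 times. Of the Schwann cell markers, Pmp2 was listed at 0 in all 8 samples, as was Hmgcs1 of the cholesterol list, and Prx stood between 0 and 4.03 in controls and between 1.92 and 7.96 after conditioning. The part of dissection, cell makeup or RNA content in the high values of control 3 was not tested.

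Beside the 37 genes, most genes of the other glial, vascular and meningeal lists also had log2 changes below 0 after conditioning, and 0 of them passed. The count was 10 of 10 for astrocyte markers, with a median of -0.32 that was -0.20 without control 3. It was 12 of 12 for endothelial and mural markers (-0.34, and -0.39 without control 3) and 11 of 12 for microglia markers (-0.28, and -0.23). For meningeal fibroblast markers it was 10 of 10 (-0.67, and -0.46), and for choroid plexus and ependymal markers 7 of 8 tested (-0.86, and -0.45). Oligodendrocyte precursor markers had 9 of 11 below 0 (-0.24 with and without control 3). Striatal neuron markers had 4 of 8 below 0 (-0.12, and -0.30). Neuron markers had 2 of 10 below 0, with a median of 0.06 (0.03 without control 3). Without control 3 these medians, the neuron list apart, lay further below 0 than that of the 37 genes, which was -0.06. No test compared the lists with each other.

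**Figure D5:**
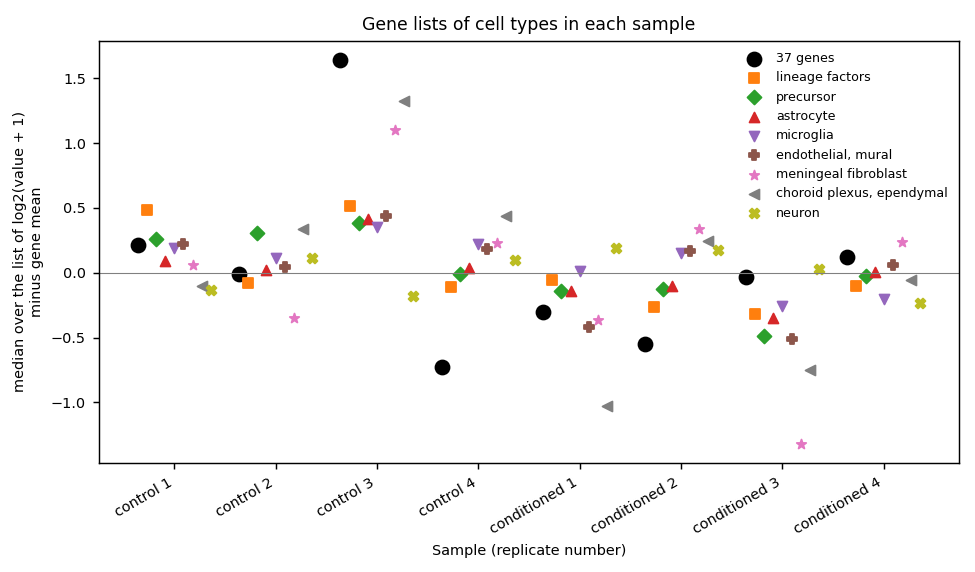
Median over each gene list of log2(value + 1) minus the gene's mean over the 8 samples, for the 37 genes (black circles), lineage factors and 7 cell type lists. In context control replicate 3 the 37 genes stand at 1.64, above the choroid plexus and ependymal list at 1.32, the meningeal fibroblast list at 1.10 and the precursor, astrocyte, microglia and endothelial lists between 0.35 and 0.43, and the neuron list is at -0.18. In context control replicate 4 the 37 genes are, of the lists drawn, the only one far below 0, at -0.72. The 26 other mature oligodendrocyte genes, which are not drawn, stand at -0.39 in that sample.

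Reads shared with other genes could touch 9 of the 37. Exons of Bcas1, Ermn, Evi2a, Hhip, Ndrg1, Pllp, Qdpr, Trf and Tspan2 overlap exons of another gene in GENCODE vM21, and neither strandedness nor the handling of such reads is given in the sources used here. Of the overlapping genes, Galnt5, which overlaps Ermn, has a row in the table, at 0 to 0.959.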

How the data were processed

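Total RNA of 8 mouse cortex samples was sequenced, 4 per group by their titles. The authors aligned with TopHat and counted with HTSeq (versions not given in the sources used here), and the build named is hg19 although the samples are mouse, per the submitters' processing notes. The deposited table is named FPKM, but its values are a scaled count signal: every column had its own step, from 0.831 to 1.61, and 100% of its nonzero values were multiples of that step to within 0.01 of a read. Dividing by the step gave the reads and the depth per sample. The step of context control replicate 3 (1.01) is close to 1, which a check of units did not accept, so the sample was left out of count tests. Its nonzero values were multiples of its step as in the other columns. Its recovered reads are used for its depth and for the reads given for single genes. The other 7 libraries differed within groups beyond sampling noise (chi-square per degree of freedom 2.50 to 23.6 over 9 pairs).

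Values were analysed as log2(value + 1). Genes with a mean of at least 1 were tested in limma 3.58.1 under R 4.3.3 with a trended variance prior. Tests were two-sided, and Benjamini-Hochberg adjustment ran over all 14704 genes, with a threshold of 0.05. The procedure was tested on simulated counts with 1 spread setting for all genes and no sample that stood apart. That run therefore does not show which changes could be found in samples that differ as these do. The 37 genes, the role groups and the other lists were chosen with earlier results of these data known. All samples' values are given for the 2 members of highest mean and the member of smallest p in each role group, other members by range. In the other lists the 2 genes of smallest p are named, except where a gene is not reported here. Further genes, Anln and Myrf, were named after their values were seen. GC content came from the longest GENCODE vM21 transcript, and its correction, edgeR 4.0.16 and DESeq2 1.42.0 on 7 samples were added after the data were seen. Other alternatives were a pseudocount of 0.1, no filter, a mean of at least 10, quantile and TMM scaling, a replicate block, array weights and leaving out each sample. Promoters were matched by symbol to a RefSeq table.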

Additional observations from a re-analysis of the deposited data

Results flagged for a closer look

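Within groups of 4, a single sample lay further from the rest than Dixon's 95% critical value allows in 14 cases, where chance gives about 1 in 20 groups. In 10 of them the sample was context control replicate 3, high for Mog (514), Ermn (881), Ugt8a (922), Aspa (172), Enpp6 (72.6), Gjc3 (309.6), Lpar1 (336), Plekhb1 (1124), Ndrg1 (704) and Tmem125 (45.4). Over all tested genes that sample was high past the same limit for 1.97%, and any control was for 4.10%. The genes share their libraries, so these are not 10 independent cases.

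The other 4 cases fell in 4 different genes and in all 4 conditioned samples, and over all tested genes a conditioned sample was high past the limit for 3.78% and low for 1.80%. Nkx6-2 was high in conditioned replicate 4 (1.92, on 2 reads). Klk6 was high in conditioned replicate 1 (1.38, on 1 read, with the rest of the group at 0). Adamts4 was low in conditioned replicate 3 (1.37). Trf was low in conditioned replicate 2 (219), where 19 of the 37 genes had their lowest conditioned value.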

How the results depend on the processing

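In limma, the direction of each tested gene of the 37 was the same under a pseudocount of 0.1, no filter, a mean value of at least 10 (33 genes), quantile scaling, TMM scaling, the replicate block, array weights and GC correction. The median change stayed between -0.52 and -0.48 there, and 0 of the 37 passed in any alternative. Unadjusted p under 0.05 was reached by 397 genes overall as reported, 823 with array weights, 785 with GC correction, 843 with GC correction and the block, 802 without fear conditioning replicate 4, 251 without fear conditioning replicate 3, 270 by edgeR and 183 by DESeq2. Among the 37 the count was 1 as reported, 2 by edgeR and by DESeq2, and between 0 (mean value of at least 10) and 13 (without context control replicate 4) over all alternatives. The replicate block gave 594 such genes, 3 of them among the 37, and 0 passed. Same-number samples correlated at 0.23, 0.25, 0.07 and 0.11 in their deviations. Control 3 correlated best with conditioned replicate 4 (0.48), so the numbers were not taken to pair the samples. Controls 1 and 2 correlated with conditioned replicates 1 and 2 at 0.23 to 0.27, and with 3 and 4 at -0.38 to -0.09. Controls 3 and 4 correlated with conditioned replicates 3 and 4 at 0.07 to 0.48, and with 1 and 2 at -0.31 to -0.13. What lies behind this grouping was not tested.

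With each sample left out in turn, the median change ran from -0.84 to -0.06, the count below 0 from 23 to 35, and genes passing over the whole table from 0 to 1, the 1 without fear conditioning replicate 4. The ranges that crossed 0 were -0.84 to 0.14 for Mog, -0.85 to 0.0188 for Cldn11, -0.69 to 0.0743 for Mal, -0.44 to 0.30 for Tspan2, -0.92 to 0.26 for Ugt8a, -1.02 to 0.23 for Aspa, -1.47 to 0.14 for Enpp6, -0.61 to 0.16 for Gjc3, -0.25 to 0.0497 for Qdpr, -0.47 to 0.11 for Ndrg1, -0.79 to 0.0768 for Tmem125 and -0.12 to 0.77 for Erbb3. Erbb3 crossed without context control replicate 4, Tspan2 also without fear conditioning replicate 2, and 11 of these genes, Tspan2 among them, without context control replicate 3.

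Count tests were run on the 7 samples other than control 3, and those planned on all 8 were not run. They gave 24 of 37 below 0, with medians of -0.114 (edgeR) and -0.111 (DESeq2). Signs opposite to the 8-sample fit were found for Mog (0.20 in edgeR, 0.20 in DESeq2), Cldn11 (0.0090, 0.0067), Mal (0.14, 0.14), Tspan2 (0.40, 0.40), Ugt8a (0.35, 0.36), Aspa (0.31, 0.31), Gjc3 (0.21, 0.20), Qdpr (0.058, 0.048), Ndrg1 (0.13, 0.12) and Tmem125 (0.047, 0.044). Fewer samples entered these fits, and the one left out was control 3. Limma without control 3 also put each of these genes above 0. Enpp6 was above 0 in that limma fit (0.14) but not in the count tests. Depth limits Nkx6-2, Klk6 and Ppp1r14a most, with 1 to 9 reads over the conditioned group.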

Other observations

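Oligodendrocyte precursor markers, genes of the dividing cells from which oligodendrocytes form, stood at other levels than the 37 mature genes in the 2 controls furthest apart. In context control replicate 3 the median deviation was 1.64 for the 37 genes and 0.39 for the precursor list. In context control replicate 4, where the 37 genes had a median deviation of -0.72, the precursor list stood at -0.01. After conditioning, the 2 genes of smallest p in that list lay on opposite sides of 0, each with groups that did not overlap, and neither passed. Over all tested genes, 0.939% had every conditioned sample below every control and 0.979% had every one above. The sialidase gene Neu4 measured 46.5, 36.3, 43.4 and 37.02 in controls and 16.6, 25.2, 24.6 and 18.2 after conditioning, a log2 change of -0.93 (SE 0.29, limma adjusted p = 0.9998) and -0.90 without control 3. Tnr, which encodes the matrix glycoprotein tenascin-R, measured 197.7, 196, 236 and 251 in controls and 315, 293, 262 and 271.5 after conditioning, a log2 change of 0.38 (SE 0.16, limma adjusted p = 0.9998) and 0.41 without control 3.

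Across the 37 genes, the fold of control 3 over the other controls had a Spearman rho of 0.39 with the fold of conditioned replicate 4 over its group. Across the 8739 genes whose mean value reached 50 it was 0.76. Genes share their libraries, so these values are descriptions.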
